A study of Mus musculus with 6 samples.

Results

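Beta-tubulin, with alpha-tubulin, forms the heterodimers that make up microtubules, and the mouse encodes it in a family of isotype genes whose proteins are alike in the body and differ most in the C-terminal tail, where motors, associated proteins and modifying enzymes bind. In islet beta cells a dense microtubule network carries insulin granules and sets how many of them reach the membrane. Tubulin mRNAs are also under autoregulation, in which excess soluble tubulin makes the cell degrade tubulin mRNA during translation through the factor Ttc5.

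The 8 isotype genes Tubb1, Tubb2a, Tubb2b, Tubb3, Tubb4a, Tubb4b, Tubb5 and Tubb6 were taken by symbol from the 55421 gene IDs counted, and each matched 1 ID. Islets came from wild-type C57BL/6 mice, with 3 libraries in the vehicle group and 3 in the group stimulated with the ligand insB:9-23, so named for a piece of the B chain of insulin. The study asked which islet genes and pathways the ligand acts on. The sources used here do not give the dose, the duration, or the age and sex of the mice. They also leave unsaid whether the ligand was given to mice or to isolated islets, and whether a library is 1 animal or a pool. The family was chosen by a measured value, namely that Tubb2a passed the test between the groups in these libraries, so the values of this comparison describe the isotypes and are no independent evidence.

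Total counts lay between 52052808 and 58880189 per library. The libraries held endocrine and exocrine RNA together: 10 beta cell markers took 9.47% to 13.7% of all counts and 20 acinar markers 14.4% to 23.8%, with the highest acinar share in insB:9-23 replicate 3. Of the beta cell markers, Mafa was at 0 in every library and the other 9 had counts in all 6. In these bulk libraries fewer cells of a type and less RNA per cell cannot be told apart. With no source that ties a library to an animal, errors below measure the spread between libraries, which may be technical.

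The isotypes differ in sequence along the whole coding region, and the end of it encodes the tail. The last 60 coding bases, stop codon included, are shown for the 7 isotypes printed here because they hold the tail. There Tubb2a and Tubb2b differ at few bases, none of which changes the encoded amino acid. Sequences are those of GENCODE M21 transcripts on GRCm38, 5′ to 3′, and capitals mark bases that differ from Tubb2a, or have no partner in it, when the whole coding regions are aligned.
Tubb2a: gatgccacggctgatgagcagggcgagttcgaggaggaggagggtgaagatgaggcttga
Tubb2b: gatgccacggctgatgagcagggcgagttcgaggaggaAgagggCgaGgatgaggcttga
Tubb4a: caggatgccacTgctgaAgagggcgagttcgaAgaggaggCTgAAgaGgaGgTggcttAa
Tubb4b: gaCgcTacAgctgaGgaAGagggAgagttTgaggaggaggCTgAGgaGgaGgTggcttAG
Tubb5: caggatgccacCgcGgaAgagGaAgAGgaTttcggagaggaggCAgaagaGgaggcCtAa
Tubb3: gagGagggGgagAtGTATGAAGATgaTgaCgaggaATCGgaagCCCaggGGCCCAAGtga
Tubb1: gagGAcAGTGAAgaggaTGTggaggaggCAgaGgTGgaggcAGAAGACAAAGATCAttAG

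In these ends Tubb2b differed from Tubb2a at 3 of 60 bases. Tubb4a differed at 11, Tubb5 at 13, Tubb4b at 17, Tubb3 at 30 and Tubb1 at 33. These are counts of capitals and leave out bases of Tubb2a that another isotype lacks. The printed ends of Tubb4a and Tubb5 also start earlier in the alignment than that of Tubb2a. Over the whole coding region Tubb2a and Tubb2b were 96.5% identical, with 47 differing bases of 1338, whereas Tubb2a was 74.9% to 84.6% identical to the other 6 isotypes.

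This likeness bears on how well reads can be assigned. Of all 100-base windows of the Tubb2a transcript, 63.1% occurred in no annotated transcript of another gene, and 543 of 1511 windows occurred word for word in Tubb2b. With 50-base windows the unique share was 50.4%, and with 150-base windows 72.1%. Tubb4b also shares sequence, with its processed pseudogenes Tubb4b-ps1 and Tubb4b-ps2 foremost, and 69.4% of its 100-base windows were unique. Tubb1, Tubb3, Tubb4a, Tubb5 and Tubb6 had 100% unique windows at that length. The sources used here give neither the read length nor the handling of reads with several matches, so the counts of Tubb2a, Tubb2b and Tubb4b are less certain than those of the other 5.

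Tubb2a (ENSMUSG00000058672; chromosome 13, 34074274 to 34078007, minus strand, 4 exons) encodes a class II isotype that is abundant in brain. In the order of replicates 1 to 3 it had 1003, 923 and 802 counts with vehicle, against 2404, 2644 and 1995 with insB:9-23. Scaled by TMM library sizes to CPM (counts scaled to library size), this was 15.9, 14.8 and 15.0 against 41.0, 47.0 and 43.6 CPM. The 2 groups stood far apart, and the lowest insB:9-23 library was 2.58 times the highest vehicle library. The means were 15.2 ± 0.571 and 43.9 ± 3.00 CPM (SD, n = 3 each), a log2 fold of 1.53 ± 0.09 (SE) in the edgeR fit. Within groups the libraries varied little, with a coefficient of variation of 3.75% in vehicle and 6.84% after the ligand.

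Tubb2b (ENSMUSG00000045136; chromosome 13, 34126748 to 34130466, minus strand), the near-identical neighbour 48740 bases away, is best known from the developing nervous system. Its libraries stood at 5.38, 7.69 and 5.49 CPM with vehicle, against 7.72, 4.43 and 4.54 CPM after insB:9-23. The groups overlapped, with vehicle replicate 2 and insB:9-23 replicate 1 high and the other 4 libraries low. The log2 fold was -0.15 ± 0.29 (SE), and it was 0.03 without vehicle replicate 2.

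The count ratio of Tubb2a to Tubb2b was 2.95, 1.92 and 2.74 in vehicle replicates 1 to 3. With insB:9-23 it was 5.32, 10.6 and 9.59. All 3 treated libraries thus had a higher ratio than any vehicle library, and the mean log2 ratio moved from 1.32 ± 0.329 to 3.02 ± 0.538 (SD), a difference of 1.71. The gain of Tubb2a was 28.6 CPM in the mean, and the counts assigned to Tubb2b made 6.19 ± 1.30 CPM in vehicle. How reads that match both genes were counted is not known. Their part in the Tubb2a gain was not tested. Counted as 1 feature, the pair had a log2 fold of 1.21 ± 0.08 (SE). The processed pseudogene Tubb2a-ps2 had 3 counts in vehicle replicate 1 and 0 elsewhere.

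**Figure D1:**
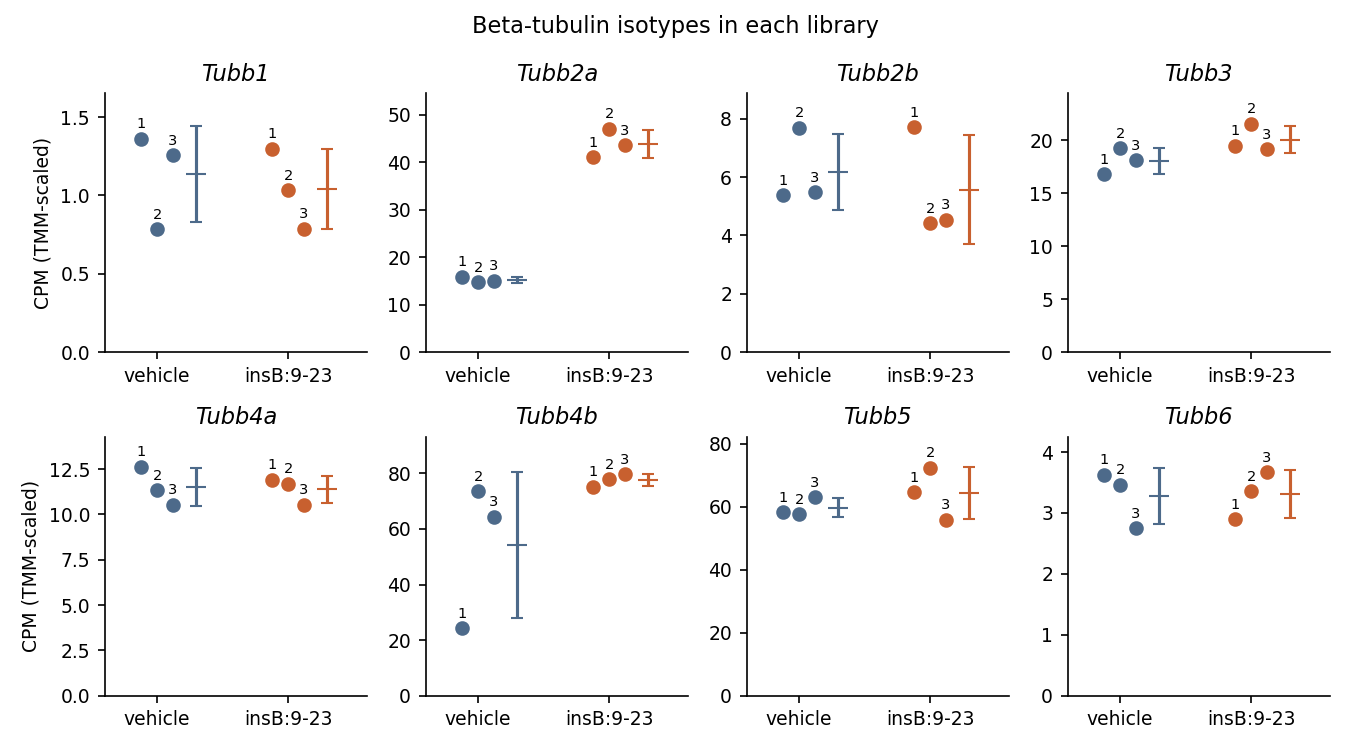
Each panel plots 1 isotype in TMM-scaled CPM (vertical axis from 0, own scale per panel) in the vehicle and insB:9-23 groups. Points are libraries numbered by replicate, and the bar beside them is the mean ± SD of 3. Tubb2a separates the groups widely, Tubb4b separates them with vehicle replicate 1 far below, at 24.3 CPM, and the other 6 overlap.

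Tubb4b (ENSMUSG00000036752; chromosome 2, 25222160 to 25224702, minus strand), a widely expressed class IV isotype that is also used in cilia, was the other isotype whose groups did not overlap. It stood at 24.3, 73.6 and 64.4 CPM with vehicle, against 75.3, 77.9 and 79.7 CPM after insB:9-23. Vehicle replicate 1 was the low library, while vehicle replicate 2 lay just below insB:9-23 replicate 1. The log2 fold was 0.52 ± 0.40 (SE) and 0.17 ± 0.09 without vehicle replicate 1. Its pseudogene Tubb4b-ps1 held 0 to 16 counts and Tubb4b-ps2 held 0 in every library.

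Tubb5 (ENSMUSG00000001525; chromosome 17, 35833921 to 35838306, minus strand), the class I isotype found in most tissues, was at 58.3, 57.6 and 63.1 CPM with vehicle, against 64.6, 72.4 and 55.9 CPM after insB:9-23. The treated libraries included both the highest and the lowest value. Its log2 fold was 0.11 ± 0.11 (SE), and -0.03 when libraries were scaled by their totals alone.

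Tubb3 (ENSMUSG00000062380; chromosome 8, 123411424 to 123422015, plus strand), the class III isotype widely used to mark neurons, was at 16.8, 19.2 and 18.1 CPM with vehicle, against 19.5, 21.6 and 19.1 CPM after insB:9-23. The groups overlapped by a narrow margin, since vehicle replicate 2 lay just above insB:9-23 replicate 3. The log2 fold was 0.15 ± 0.10 (SE). Of 10 neuronal markers, 9 had counts in every library. Their summed share was 0.00738% to 0.00866% of raw counts in vehicle and 0.00503% to 0.00734% after insB:9-23. The sum weighs most on the markers with the highest counts. Th had TMM-scaled means of 36.6 CPM in vehicle and 32.9 CPM after insB:9-23, whereas Elavl3 had 0.229 and 0.356 CPM. How much of the sum came from nerve cells was not tested. Schwann and glial markers (8 genes, 7 with counts in every library) took 0.0079% to 0.00848% and 0.00605% to 0.0078%. Neither of these ranges overlapped between the groups, though the neuronal ones parted narrowly (0.00734% against 0.00738%). Of the 13 marker lists examined, all others overlapped. The ranges are shares of raw total counts, whereas the Tubb3 values above are TMM-scaled, so their directions cannot be set against each other. With library totals alone the Tubb3 log2 fold was 0.006 and the median over all genes -0.15. Overlap of the marker sums on the TMM scale was not examined. The part of these markers in the values of Tubb3 and Tubb2a was not tested.

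Tubb4a (ENSMUSG00000062591; chromosome 17, 57080066 to 57087782, minus strand), a class IV isotype best known from brain and myelinating glia, was at 12.6, 11.3 and 10.5 CPM with vehicle, against 11.9, 11.7 and 10.5 CPM after insB:9-23. The values lay on top of each other, with a log2 fold of -0.02 ± 0.12 (SE).

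Tubb6 (ENSMUSG00000001473; chromosome 18, 67390717 to 67402749, plus strand), the class V isotype, was at 3.63, 3.46 and 2.75 CPM with vehicle, against 2.90, 3.36 and 3.67 CPM after insB:9-23. Tubb1 (ENSMUSG00000016255; chromosome 2, 174450695 to 174457882, plus strand), the class VI isotype of platelets and megakaryocytes, was at 1.36, 0.785 and 1.26 CPM with vehicle, against 1.30, 1.03 and 0.786 CPM after insB:9-23. Both were low and overlapped between the groups, with log2 folds of 0.01 ± 0.20 and -0.12 ± 0.35 (SE). Of 8 platelet and megakaryocyte markers, Gp1bb, Gp6 and Treml1 were at 0 in every library, and the list took at most 0.000242% of counts in any library.

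All 8 isotypes entered the test, and 1 passed the edgeR quasi-likelihood threshold (adjusted p below 0.05), namely Tubb2a, which was higher. Over all 17016 genes tested 14 passed, or 0.0823%, and those that passed and were higher made 0.0294%. Since Tubb2a brought the family under study, nothing is read from its pass. For 2 isotypes (Tubb2a and Tubb4b) every treated library lay above every vehicle library, beside 6.4% of all genes tested. Folds were above 0 for 5 isotypes and below 0 for 3, and with libraries scaled by their totals alone for 3 and 5, where Tubb5 and Tubb6 turned below 0 and the median over all genes was -0.15. In the TMM fit the family median was 0.06 on the log2 scale, beside 0.01 over all genes tested. Scaling by library totals also ended the pass of Tubb2a, with a log2 fold of 1.38 ± 0.16 (SE). A block for the replicate number ended it too, with a log2 fold of 1.52 ± 0.11 (SE). Tubb2a passed without each library in turn, at 1.47 to 1.57.

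Levels of different isotypes were compared as CPM per kilobase of annotated exon. That length includes the bases that Tubb2a, Tubb2b and Tubb4b share with other genes, so their levels and shares are less certain than those of the other isotypes. What this does to the order was not tested. In the vehicle group the order from high to low was Tubb4b, Tubb5, Tubb3, Tubb2a, Tubb4a, Tubb2b, Tubb6 and Tubb1. Tubb4b averaged 25.9 ± 12.5 and Tubb5 17.9 ± 0.899 CPM per kb, and vehicle replicate 1 had them in the opposite order (11.7 and 17.5). Tubb3 at 9.67 ± 0.653 and Tubb2a at 9.46 ± 0.355 CPM per kb did not differ beyond their spread. The ranges of all other neighbours in that order, from Tubb4a (5.16 ± 0.476) through Tubb2b (2.70 ± 0.568) and Tubb6 (1.35 ± 0.190) to Tubb1 (0.807 ± 0.218), did not overlap.

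After insB:9-23 the order differed only in the place of Tubb2a, which stood second at 27.3 ± 1.86 CPM per kb. It lay below Tubb4b at 37.2 ± 1.07 and above Tubb5 at 19.3 ± 2.49 in all 3 libraries, and no neighbours in that order overlapped. Tubb3, at 10.7 ± 0.698 CPM per kb, came after Tubb5.

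As a share of all length-scaled beta-tubulin counts, Tubb2a made up 16.9%, 11.1% and 12.0% in vehicle replicates 1 to 3. With insB:9-23 it made up 24.9%, 26.8% and 26.8%. Every treated library lay above every vehicle library, and the highest vehicle share belonged to replicate 1, where Tubb4b was low. Tubb4b held 34.1 ± 12.4% in vehicle and 35.7 ± 1.84% after the ligand, and Tubb5 25.1 ± 4.52% and 18.5 ± 1.72% (SD, n = 3 each). Tubb3 held 13.4 ± 1.68% and 10.3 ± 0.234%, Tubb4a 7.31 ± 2.06% and 4.91 ± 0.291%, and Tubb2b 3.71 ± 0.560% and 2.34 ± 0.829%. Shares sum to a whole, so a larger Tubb2a share lowers the others without a lower level of their own.

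**Figure D2:**
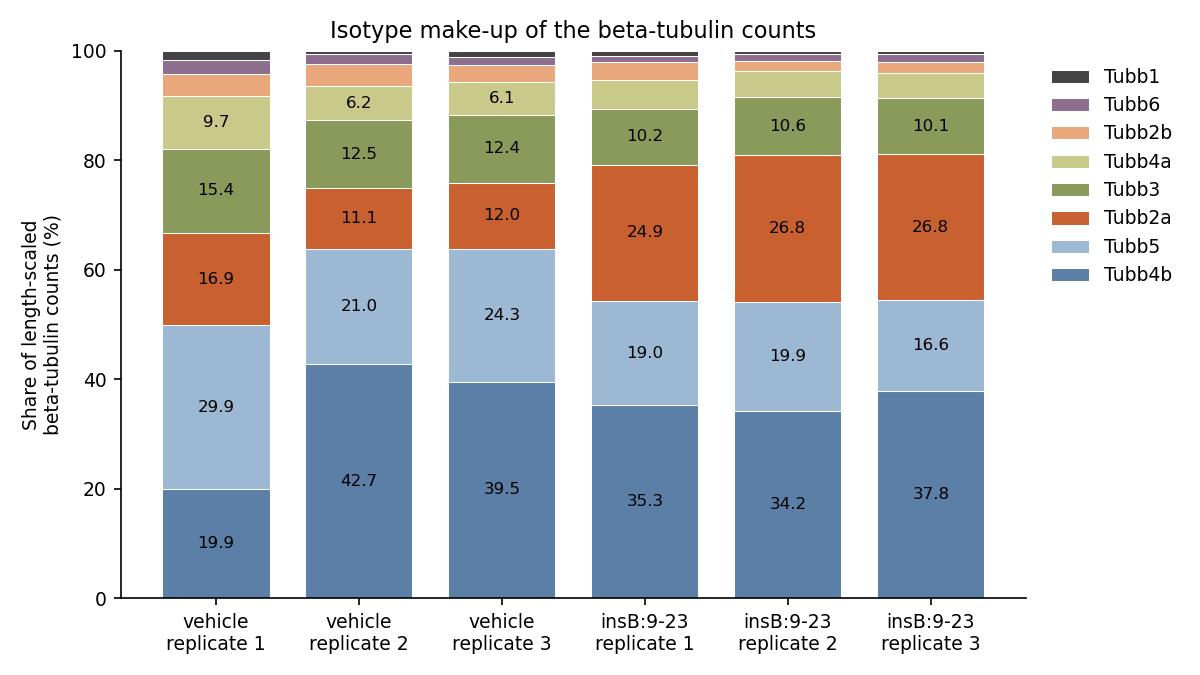
Stacked bars, 1 per library, give the percentage of length-scaled beta-tubulin counts that came from each isotype (vertical axis 0 to 100, segments above 6 labelled). The Tubb2a segment is between 11.1% and 16.9% in the vehicle libraries and between 24.9% and 26.8% in the insB:9-23 libraries.

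Summed over the family, beta-tubulin reached 138, 189 and 181 CPM in the vehicle libraries and 224, 239 and 218 CPM in those given insB:9-23, in replicate order. Without Tubb2a the sums were 122, 174 and 166 CPM against 183, 192 and 174 CPM. The groups then lay next to each other, with insB:9-23 replicate 3 level with vehicle replicate 2 and only vehicle replicate 1 clearly below. Of the mean gain of 57.9 CPM in the family sum, Tubb2a made 49.5%. These sums are not divided by gene length, so longer isotypes weigh more in them. Per kilobase the family sum averaged 73.0 ± 12.7 CPM in vehicle and 104 ± 4.36 CPM after insB:9-23 (SD). Without Tubb2a it averaged 63.55 ± 13.1 and 76.87 ± 2.97 CPM per kb. The 49.5% depends on vehicle replicate 1, where Tubb4b was low at 24.3 CPM. The Tubb4b means were 54.1 ± 26.2 CPM in vehicle and 77.6 ± 2.23 CPM after insB:9-23.

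Set against each other isotype in turn, Tubb2a gave higher log2 count ratios in the treated libraries. The difference between group means was 1.37 against Tubb3, 1.42 against Tubb5, 1.51 against Tubb6, 1.54 against Tubb4a and 1.64 against Tubb1, and in each of these the groups did not overlap. Against Tubb4b it was 0.85 and the groups overlapped, because the ratio in vehicle replicate 1 (-0.62) exceeded that in every treated library (-0.87 to -0.73). These ratios within a library do not depend on how libraries are scaled.

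**Figure D3:**
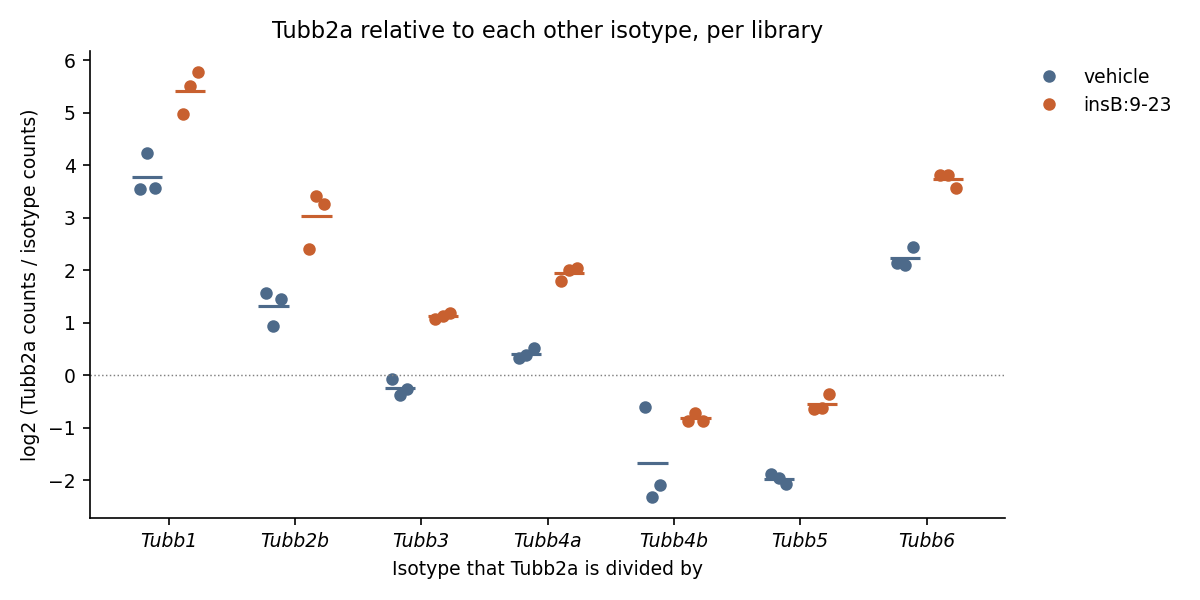
Points give the log2 ratio of Tubb2a counts to the counts of the isotype named on the horizontal axis, 1 point per library, with vehicle left and insB:9-23 right in each pair and a line at the mean of 3. The treated libraries lie above the vehicle libraries for every isotype but Tubb4b, where vehicle replicate 1 is at -0.62.

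At the Tubb2a locus, neighbouring genes were examined within 150 kb on each side. Bphl, a hydrolase gene on the opposite strand, ends 199 bases from the 3′ end of Tubb2a, so the genes converge there. It was at 16.4, 20.0 and 20.2 CPM with vehicle, against 20.7, 21.1 and 20.3 CPM after insB:9-23, a log2 fold of 0.13 ± 0.11 (SE; adjusted p = 0.90 in edgeR). Its treated libraries lay just above the vehicle range. Ripk1, a kinase of cell death signalling, was at 19.3 ± 1.92 and 20.3 ± 1.26 CPM (adjusted p = 0.94 in edgeR). Slc22a23, a transporter gene, was at 92.3 ± 16.4 and 75.9 ± 37.2 CPM (adjusted p = 0.94 in edgeR), with insB:9-23 replicate 2 low at 33.0 CPM. Psmg4, a proteasome assembly chaperone, was at 4.00 ± 1.35 and 3.28 ± 1.62 CPM (adjusted p = 0.94 in edgeR), and Serpinb6a, a protease inhibitor, at 48.5 ± 5.14 and 46.3 ± 10.8 CPM (adjusted p = 0.97 in edgeR). Nqo2, a quinone reductase, and 1110046J04Rik, an antisense transcript, did not pass either (adjusted p = 0.96 and 0.93 in edgeR). The remaining 3 genes with any count there (Gm17083, 4930447K03Rik and Gm36500) were too low to test.

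The genes whose profile over the 6 libraries was most like that of Tubb2a were ranked by the root-mean-square difference of centred log2 CPM. The ranking took in 13573 genes with a mean of at least 1 CPM over the 6 libraries. Smim14, a small membrane protein gene, was nearest at 0.0728 log2 units, with 68.7, 65.6 and 74.3 CPM with vehicle, against 191, 202 and 185 CPM after insB:9-23. Cyp26b1, which breaks down retinoic acid, was next at 0.146, with 0.936 ± 0.230 and 3.71 ± 0.442 CPM. Gm32687 at 0.22 (means of 0.398 and 2.07 CPM) and Gm14440 at 0.274 (0.240 and 1.99 CPM) followed. Their log2 folds of 2.37 and 3.04 were larger than the 1.53 of Tubb2a. The 0.5 added to CPM before taking logs narrows such differences at low levels. Gata6, a transcription factor of pancreas development, came next at 0.289, with 8.29 ± 1.04 and 17.2 ± 1.20 CPM. Of these 5, only Smim14 passed the edgeR test. The nearest isotype was Tubb4b at rank 1838 (0.672), the median over all ranked genes was 0.78, and Tubb2b lay beyond it at rank 11200 (0.897).

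Among the other genes of the tubulin pathway none passed the edgeR test. Of 128 genes in 6 lists 118 were tested, 0 passed over all genes, and 11 had an unadjusted p below 0.05 (4 higher and 7 lower), or 9.32% of those tested beside 5.55% of all genes. DESeq2 called 1 of them, Mzt1, and limma-voom called 0. The smallest edgeR adjusted p was 0.88.

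Alpha-tubulins, the partners of beta-tubulin in the heterodimer, had 5 of 8 genes tested, all with folds above 0 and a median log2 fold of 0.37. That median is the fold of Tuba8 (0.37 ± 0.30, SE), a low gene with means of 0.807 CPM in vehicle and 1.04 CPM after insB:9-23. Tuba1a, the most abundant, was at 123, 128 and 132 CPM with vehicle, against 137, 148 and 116 CPM after insB:9-23. Its groups overlapped, with both the highest and the lowest value among the treated libraries, and its log2 fold was 0.07 ± 0.10 (SE). Tuba1b, a ubiquitous isotype, was at 64.3, 71.5 and 29.1 CPM with vehicle, against 76.7, 82.0 and 63.1 CPM after the ligand, with vehicle replicate 3 far below the rest. Tuba4a, an alpha-tubulin that carries no encoded terminal tyrosine, was at 21.7, 21.3 and 39.1 CPM with vehicle, against 42.6, 41.8 and 42.2 CPM after insB:9-23, so vehicle replicate 3 stood near the treated libraries. The log2 fold was 0.62 ± 0.25 (SE; adjusted p = 0.88 in edgeR). Tuba1c was at 23.0 ± 0.457 and 26.5 ± 0.924 CPM (log2 fold 0.21 ± 0.07, SE; adjusted p = 0.88 in edgeR). Tuba1a, Tuba1b and Tuba1c are close paralogs whose reads the counting could split.

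Of the genes for gamma-tubulin, the other tubulins and the nucleating ring, 16 were tested with a median log2 fold of -0.07. Mzt1, a small subunit of the ring, was at 46.6, 6.83 and 41.9 CPM with vehicle, against 7.97, 6.05 and 5.61 CPM after insB:9-23. Vehicle replicate 2 lay with the treated libraries, so the groups overlapped (log2 fold -2.28 ± 0.70, SE; adjusted p = 0.88 in edgeR). Without that library, the vehicle library unlike the others, Mzt1 passed the edgeR test. With any other single library left out, it did not pass. Akap9, a centrosomal scaffold, was at 182 ± 5.65 and 166 ± 1.02 CPM, and Pcnt, pericentrin, at 36.7 ± 2.19 and 38.5 ± 0.502 CPM.

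The folding list holds the chaperonin CCT and prefoldin subunits, the tubulin cofactors and Ttc5, and its 21 tested genes had a median log2 fold of 0.08. The chaperonin subunits Cct3 (64.9 ± 2.22 and 58.8 ± 3.62 CPM), Cct7 (109 ± 2.99 and 118 ± 5.61 CPM) and Cct5 (132 ± 3.45 and 141 ± 2.85 CPM) each had an edgeR adjusted p of 0.88.

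Tubulin-modifying enzymes (23 tested) had a median log2 fold of -0.09. Ttll7, which adds glutamate chains to beta-tubulin tails, was at 120, 71.3 and 117 CPM with vehicle, against 69.2, 55.3 and 56.3 CPM after insB:9-23. The treated libraries all lay below the vehicle libraries, vehicle replicate 2 by a small margin (log2 fold -0.77 ± 0.22, SE; adjusted p = 0.88 in edgeR). Ttll5, another glutamylase, was at 19.9 ± 1.6 and 16.6 ± 0.846 CPM, and Hdac6, a tubulin deacetylase, at 178 ± 15.1 and 168 ± 12.4 CPM.

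Microtubule-associated and end-binding proteins (30 tested) had a median log2 fold of -0.05. Stmn1, stathmin, which sequesters tubulin dimers, was at 5.49 ± 0.554 and 7.72 ± 0.933 CPM (log2 fold 0.49 ± 0.16, SE; adjusted p = 0.88 in edgeR). Map6, a stabiliser of microtubules, was at 13.5 ± 1.05 and 17.3 ± 2.38 CPM, Map2 at 266 ± 7.27 and 254 ± 4.84 CPM, and Map1b at 231 ± 63.7 and 247 ± 5.31 CPM, with vehicle replicate 1 low at 158 CPM.

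Transport motors (23 tested) had a median log2 fold of -0.07. Dync1h1, the heavy chain of cytoplasmic dynein, was at 462 ± 7.33 and 408 ± 18.7 CPM (log2 fold -0.18 ± 0.06, SE; adjusted p = 0.88 in edgeR). Kif1b, a kinesin, was at 175 ± 20.3 and 149 ± 4.15 CPM, and Dynll2, a dynein light chain, at 299 ± 45.5 and 259 ± 19.6 CPM.

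**Figure D4:**
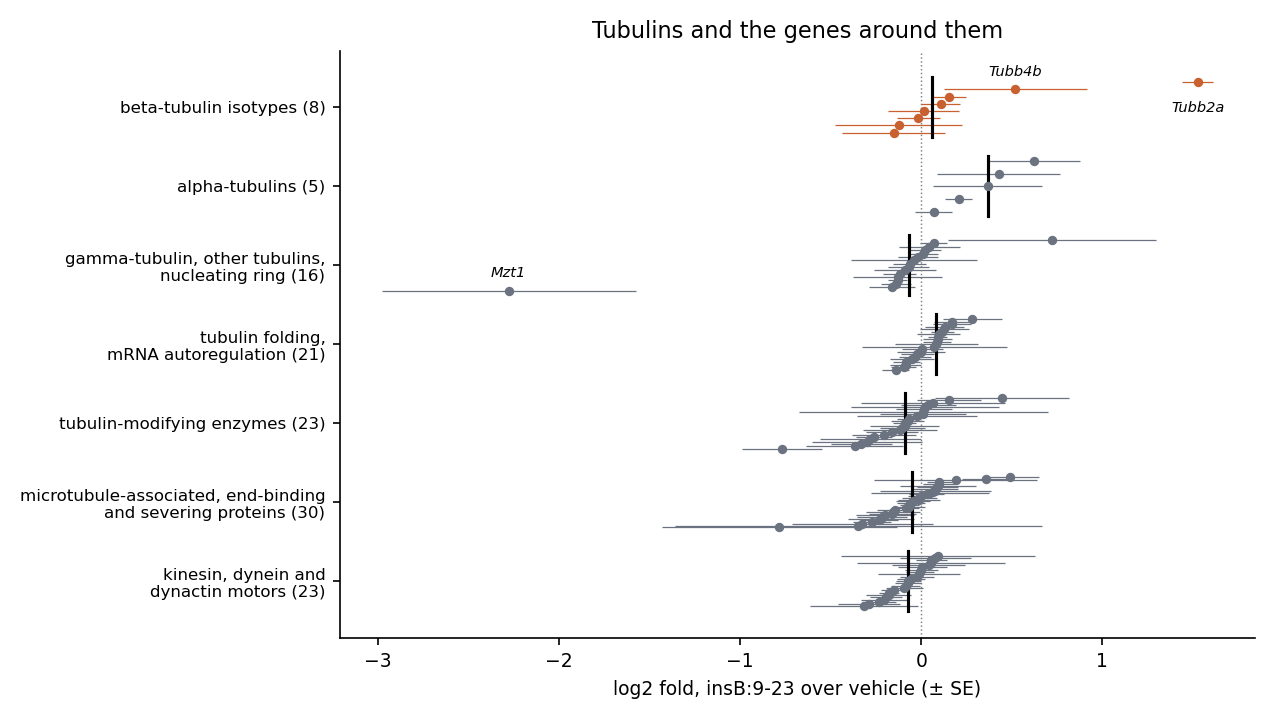
Points give the log2 fold (insB:9-23 over vehicle, horizontal axis) with its SE from the edgeR fit for each tested isotype and for each tested gene of the 6 lists, with the number of genes in brackets. Black lines mark list medians. Tubb2a stands at 1.53, the family median is 0.06, and the list medians run from -0.09 to 0.37.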

How the data were processed

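Each library has 1 deposited table of unnormalised counts by Ensembl gene ID, per the file headers. HISAT, featureCounts 1.5.0-p3, DESeq 1.8.3 and the build GRCm38 are listed, without roles, in the submitters' processing notes. The labels' protocols name TRIzol extraction and a KAPA stranded kit. The strand setting is not given in the sources used here. Symbols, coordinates, exon lengths and transcripts came from GENCODE M21 (GRCm38), which held 55240 of 55421 IDs, and the others took at most 0.003% of a library's counts. Sample titles gave groups and replicate numbers. Libraries of 1 group differed beyond sampling noise (chi-square of 79.96 to 247.1 per degree of freedom).

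Counts were filtered with filterByExpr, scaled with TMM and tested with the robust quasi-likelihood test of edgeR 4.0.16 (R 4.3.3) over 17016 genes, with Benjamini-Hochberg adjustment and a threshold of 0.05. SE was taken as the log2 fold over the square root of F. Ratios used a prior of 0.5 counts, and profiles log2(CPM + 0.5). Coding regions were aligned end to end with Biopython 1.88. On data simulated for insB:9-23 against vehicle, with 16464 genes tested, the test called 63 of 100 genes changed 4-fold, 16 of 100 changed 2-fold and 9 unchanged genes. DESeq2 1.42.0, limma 3.58.1 (voom), other scalings and filters, a covariate, the replicate block, summing Tubb2a with Tubb2b and leaving out each library were alternatives.

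The isotypes and lists were chosen with earlier results of these data known. Named are all isotypes, Tubb-named pseudogenes, genes with counts within 150 kb of Tubb2a, the 5 most similar profiles, and from each pathway list the 2 genes with the smallest p and the 2 with the highest CPM. Tuba8 is named because its fold is the alpha-tubulin median, and Th and Elavl3 were picked after their values were seen.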

Additional observations from a re-analysis of the deposited data

How the results depend on the processing

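The log2 fold of Tubb2a kept its sign in all 15 alternatives on the separate genes, at 1.38 to 1.57, and passed the threshold in 13. It did not pass with library totals alone (1.38) or with the replicate block (1.52). Leaving out 1 library gave 1.47 to 1.57 for Tubb2a, 0.17 to 0.81 for Tubb4b and 1.52 to 2.02 for the difference in the log2 ratio of Tubb2a to Tubb2b. No other isotype passed in any alternative. Signs of folds near 0 turned. With the acinar covariate Tubb1 was at 0.063, Tubb4a at 0.074 and Tubb6 at -0.020. With library totals alone Tubb5 was at -0.028 and Tubb6 at -0.15, and with limma-voom Tubb6 at -0.0019. Leaving out 1 library gave -0.33 to 0.042 for Tubb1, -0.46 to 0.033 for Tubb2b, -0.076 to 0.056 for Tubb4a and -0.10 to 0.10 for Tubb6. The count of genes past the threshold was 14 in edgeR, 106 in DESeq2 and 9 with the acinar covariate, and 16 to 26 when 1 library was left out (23 without vehicle replicate 1, 25 without insB:9-23 replicate 1, 26 without insB:9-23 replicate 3). With the replicate block edgeR called 0 genes, with 605 at an unadjusted p below 0.05. Same-numbered libraries did not deviate together (Pearson's r of -0.03, -0.07 and -0.01 across genes). With 3 libraries per group these values cannot decide whether the numbers mark a shared batch. The titles give the numbers without their meaning, and the main fit uses no block. The fit with the block has fewer residual degrees of freedom. With the length of the longest transcript in place of all exons, the Tubb2a share after insB:9-23 was 22.5% and that of Tubb4b 40.2%. Causes of these changes were not tested. The isotypes with the fewest counts per library were Tubb1, with 36 to 86, and Tubb6, with 147 to 229.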

Other observations

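A single low library, as in Tubb4b and Tuba1b, also occurred elsewhere in the tubulin pathway. Of 96 isotype and pathway genes with a mean of at least 10 CPM, 5 had 1 library below 0.5 times the next lowest. These were Tubb4b in vehicle replicate 1 (24.3 against 64.4 CPM), Tuba1b in vehicle replicate 3 (29.1 against 63.1 CPM), Mapre1, a plus-end binding protein, in insB:9-23 replicate 3 (20.4 against 52.5 CPM), Kif3b in insB:9-23 replicate 3 (28.6 against 58.9 CPM) and Kif3c, like Kif3b a kinesin-2 motor, in vehicle replicate 2 (5.38 against 12.8 CPM). The low library thus differed between most of these genes. Over all 8376 tested genes at that level, 4.55% had such a low library, and 0.728% had 1 library above 2 times the next highest. Each of the 6 libraries was the low one for 57 to 70 genes. Mapre1, Kif3b and Kif3c were chosen after their values were seen.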
